A study of Mus musculus with 8 samples.

Results

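Cholesterol and fatty acid synthesis was followed through 36 genes in oligodendrocytes, the cells that wrap axons in myelin, and in microglia of aged mouse brain. The genes were taken from a given list: 18 sterol synthesis enzymes, 5 genes of sterol sensing and transport, 11 genes of fatty acid synthesis, desaturation and elongation, and 2 galactolipid genes. The list was chosen with earlier results of these data known, so shares of it set beside those of all genes are a description. All 36 were among the 20354 genes of the deposited oligodendrocyte count table. Cells were held by their deposited cluster names, by library, tissue and genotype. The authors drew the clusters from the most variable genes of these data, and which of the 36 were among those was not checked. Differences between clusters are therefore given here as a description.

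Single-cell RNA (droplet 3′ tags counted by unique molecular identifiers, UMIs) was measured in gray matter of the frontal cortex and in white matter tracts of mice aged 24 months, to ask how oligodendrocytes of aged white matter differ with and without functional lymphocytes. Wild-type C57BL/6 mice (C57BL/6J in the methods) gave 2 gray and 2 white matter libraries. Rag1-/- mice, which lack mature T and B cells, gave 1 gray and 3 white matter libraries. They are labelled NOD.129S7(B6)-Rag-1tm1Mom/J, whereas the methods name a C57BL/6J line of the same allele. No group was treated. Libraries were made from live (SYTOX Blue negative) cells dissociated with actinomycin D, most of them from pooled mice, and Rag1-/- white matter replicates 2 and 3 came from 1 mouse each. The labels put gray and white matter replicate 1 of wild type, replicate 2 of wild type and replicate 1 of Rag1-/- in 1 batch each, which gave 3 pairs of libraries. Every Rag1-/- library was made in another experiment than every wild-type library, and the methods name another Cell Ranger version for it, although the submitters' notes name only 1 version, so genotype and experiment cannot be told apart.

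The 15604 oligodendrocytes came as 284 to 4106 cells and 2754274 to 44269555 UMIs per library, with a median of 8669 to 12925.5 UMIs per cell. The summed level of 7 oligodendrocyte markers (Mbp and Mog among them) was 42811 to 50850 CPM in the 8 libraries, where CPM is the UMIs of a gene per 1000000 UMIs summed over the cells. Between 0 and 23 UMIs of Rag1 itself were found per wild-type library and between 11 and 77 per Rag1-/- library, and tags from the 3′ end lie outside the deleted coding part and do not check the genotype. At most 5 cell barcodes were shared by any pair of libraries.

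Cholesterol makes up much of the myelin membrane and is made inside the brain, since it hardly crosses the blood-brain barrier. Its synthesis runs from acetyl-CoA through mevalonate (Hmgcs1, Mvk), isoprenoids (Idi1, Fdps) and squalene (Fdft1, Sqle) to lanosterol (Lss) and then cholesterol (Cyp51, Msmo1, Sc5d, Dhcr7). The transcription factors SREBP1 and SREBP2 (Srebf1, Srebf2) turn these genes on when Scap carries them from the endoplasmic reticulum, and Insig1 holds Scap back when sterols are plentiful. Fatty acids are built by Acaca and Fasn, desaturated by Scd1, Scd2, Scd3, Fads1 and Fads2, and elongated by Elovl1, Elovl5 and Elovl6, while Fa2h and Ugt8a make the hydroxylated galactolipids of myelin.

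Promoters are shown for 3 genes on which the tissue comparison below turns: Hmgcs1, the first committed step towards mevalonate, Insig1 and Scd3. Sequences are from RefSeq (GRCm38.p6), from 250 bases before to 50 bases after the RefSeq start, which can differ from the GENCODE start given with a gene below, and capitals mark TCACNCCAC (the core of a sterol regulatory element), CCAAT (bound by NF-Y) and GGGCGG (bound by Sp1) on either strand, none of them overlapping another.
Hmgcs1, chr13:119690101-119690400, plus strand: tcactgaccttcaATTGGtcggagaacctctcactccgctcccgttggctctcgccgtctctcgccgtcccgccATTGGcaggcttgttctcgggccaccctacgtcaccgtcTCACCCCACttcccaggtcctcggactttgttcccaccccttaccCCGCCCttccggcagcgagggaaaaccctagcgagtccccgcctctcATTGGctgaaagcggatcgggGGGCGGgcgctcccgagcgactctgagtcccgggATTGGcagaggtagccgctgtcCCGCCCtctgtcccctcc
Insig1, chr5:28071162-28071461, plus strand: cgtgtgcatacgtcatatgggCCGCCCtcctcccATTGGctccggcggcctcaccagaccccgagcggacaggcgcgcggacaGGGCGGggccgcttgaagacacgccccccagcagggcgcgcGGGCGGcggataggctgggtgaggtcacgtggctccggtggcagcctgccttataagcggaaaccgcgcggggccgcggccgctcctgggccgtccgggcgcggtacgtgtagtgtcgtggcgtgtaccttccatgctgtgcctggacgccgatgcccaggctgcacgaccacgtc
Scd3, chr19:44203038-44203337, plus strand: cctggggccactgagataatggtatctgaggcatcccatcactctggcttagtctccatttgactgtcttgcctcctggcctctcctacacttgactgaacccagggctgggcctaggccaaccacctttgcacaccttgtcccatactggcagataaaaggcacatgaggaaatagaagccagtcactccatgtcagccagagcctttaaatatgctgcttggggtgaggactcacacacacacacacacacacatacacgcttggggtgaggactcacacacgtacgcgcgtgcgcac
The Hmgcs1 window held 1 sterol regulatory element core, 4 CCAAT and 3 GGGCGG motifs, the Insig1 window 1 CCAAT and 3 GGGCGG motifs, and the Scd3 window none. A promoter was listed for 28 of the 36 genes. Some genes have several, 35 windows in all. CCAAT was found in 22 of the 35 windows (62.9%) and in 37.4% of all 32851 promoters of this length, GGGCGG in 26 of 35 (74.3%) against 35.7%, and TCACNCCAC in 1 of 35 (Hmgcs1, 2.86%) against 1.24%. Counted by gene, 14 of the 15 sterol synthesis enzymes with a promoter held CCAAT in at least 1 window, and 14 held GGGCGG.

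The first comparison asked whether oligodendrocytes of white matter carry other levels of these genes than those of gray matter in wild-type mice. The desaturases Scd3, Scd1 and Fads1, the sterol sensor Insig1, the sterol carrier Stard4 and Srebf1 were lower in white matter in each of the 3 pairs, whereas Hmgcs1 and Acaca were higher in each. In the unpaired test across all 13067 genes none of the 36 passed an adjusted p of 0.05, and with the pair of libraries as a block 11 did, where the background was 10.0% of all genes.

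Scd3 (chr19:44203269-44244016) had 51.9 and 60.0 CPM in the wild-type gray matter libraries and 32.6 and 31.9 CPM in white matter. Both white matter libraries lay below both gray matter libraries, by 0.80 on the log2 scale (standard error 0.16, adjusted p = 0.0702, edgeR quasi-likelihood test with Benjamini-Hochberg adjustment). In Rag1-/- mice it had 49.3 CPM in gray matter and 29.7, 38.1 and 35.5 CPM in the 3 white matter libraries, so that all 5 white matter libraries were under all 3 of gray matter. Without a filter on low counts Scd3 passed (adjusted p = 0.0299), where the background was 194 of 16614 genes.
Insig1 (chr5:28071363-28078662) had 230 and 174 CPM in wild-type gray and 145 and 107 CPM in wild-type white matter, with a log2 difference of -0.66 ± 0.27 (standard error, adjusted p = 0.461). It had 159 CPM in Rag1-/- gray matter and 123, 68.6 and 72.9 CPM in Rag1-/- white matter. All 5 white matter libraries again lay below the 3 of gray matter, and within each genotype the libraries differed widely.
Fads1, the delta-5 desaturase of long polyunsaturated fatty acids, had 59.9 and 40.0 CPM in wild-type gray and 35.5 and 25.2 CPM in white matter, and 35.9 against 21.8, 32.5 and 25.8 CPM in Rag1-/- libraries. Scd1, which makes oleic from stearic acid, had 176 and 207 CPM against 126 and 149 CPM, and 164 against 130, 135 and 123 CPM. Stard4 had 16 and 16.9 CPM against 10.3 and 12.6 CPM, and 14.2 against 10.4, 9.13 and 9.73 CPM. Srebf1 had 131 and 108 against 97.1 and 80.4 CPM in wild-type mice, but 66.5 against 59.7, 96.2 and 86.9 CPM in Rag1-/- mice, where the groups overlapped. For Fads1, Scd1 and Stard4 no white matter library of a genotype reached a gray matter library of that genotype. Groups of 1 to 3 libraries separate easily, here and for other genes described in this way. The share of all genes that separated so was not counted.
On the higher side the differences were smaller in size than that of Scd3. Hmgcs1 (chr13:119690379-119708260) had 152 and 222 CPM in wild-type gray and 189 and 287 CPM in wild-type white matter, where the groups overlapped and only the pairs ran one way. Acaca, the acetyl-CoA carboxylase that commits carbon to fatty acids, had 112 and 107 CPM against 134 and 133 CPM, with a log2 difference of 0.31 ± 0.13 (standard error, adjusted p = 0.487). Sqle, the squalene epoxidase, had 45.0 and 55.8 CPM against 49 and 63.4 CPM, again overlapping. Pmvk, the phosphomevalonate kinase, had 44.7 and 48.9 CPM in gray and 55.1 and 54.9 CPM in white matter, without overlap (log2 difference 0.24).

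**Figure D1:**
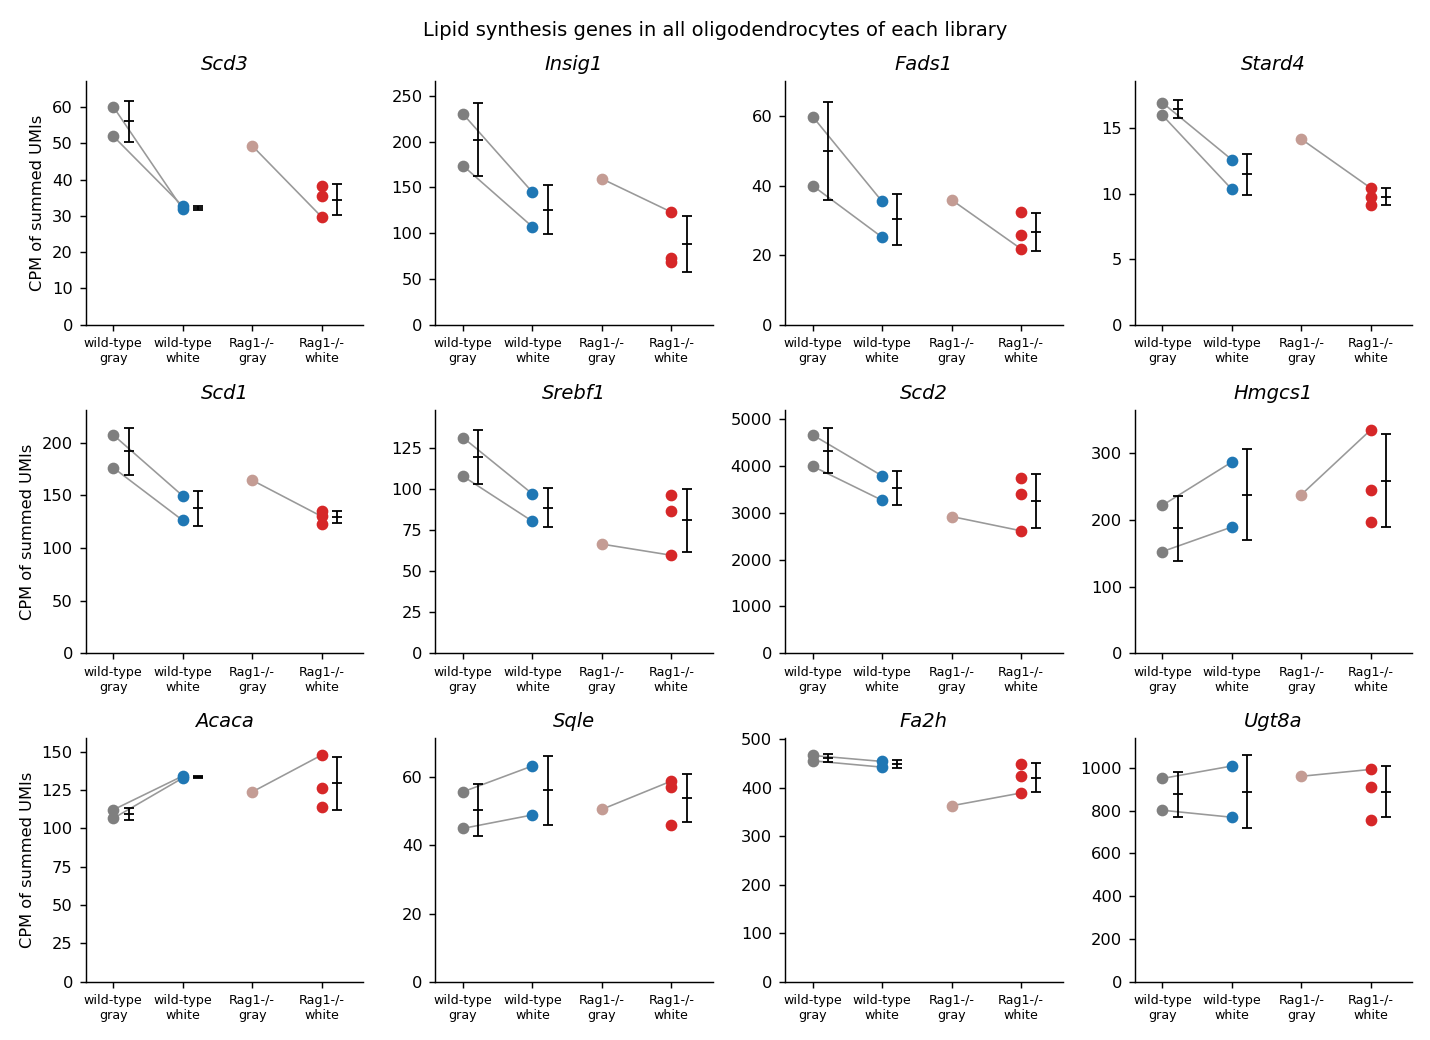
Each point is 1 library (y axis, CPM of the UMIs summed over its oligodendrocytes, from 0), by genotype and tissue (x axis); lines join the gray and white matter libraries of 1 batch, and bars give mean ± SD where a group has 2 or 3 libraries. Scd3, Insig1, Fads1, Stard4, Scd1, Srebf1 and Scd2 fall along all 3 lines, Hmgcs1, Acaca and Sqle climb along all 3, and Fa2h and Ugt8a run nearly flat.

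Without the block, the background was 131 of 13067 genes called (1.00%) and 0 of 36 here. Of the 36, 6 had an unadjusted p under 0.05, as did 1252 of all 13067 genes. Of the 36 differences, 16 were above and 20 below 0, and their median was -0.07 against -0.01 over all genes tested. DESeq2 called 1 of the 36, Scd3 (log2 difference -0.80, adjusted p = 0.00422), where the background was 281 of 16614 genes. With the pair as a block, 1310 of 13067 genes (10.0%) passed, and of the 36 the 2 higher were Hmgcs1 (0.36, adjusted p = 0.000307) and Acaca (0.31, adjusted p = 0.005). The 9 lower were Scd3 (-0.83, adjusted p = 1.96e-12), Insig1 (-0.67, adjusted p = 6.28e-15), Fads1, Scd1, Srebf1, Fdps, Scd2, Stard4 and Elovl5, the last with a log2 difference of -0.24. Rag1-/- white matter replicates 2 and 3, which have no gray matter partner, were given a block each, so the blocked fit rests for its spread on the 2 wild-type pairs, which leave 1 residual degree of freedom for each gene, and its spread is mostly that shared across genes.

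By role, the sterol synthesis enzymes held 8 genes that were higher in white matter in all 3 pairs and 1 that was lower, Fdps (log2 ratios of -0.06, -0.56 and -0.13). Of the 5 sensing and transport genes, 3 were lower in all pairs and none higher, and of the 11 fatty acid genes 7 were lower and 3 higher. The 7 lower include Fads2, which was hardly detected, so that its direction is uncertain. Neither galactolipid gene ran one way: Fa2h, the fatty acid 2-hydroxylase, had 456 and 467 CPM in wild-type gray and 443 and 455 CPM in white matter, and Ugt8a, which adds galactose to ceramide, 802 and 951 against 769 and 1009 CPM. Over all genes with at least 100 UMIs, 21.7% were lower and 24.5% higher in all 3 pairs, against 11 and 11 of the 36 genes here. Scd2, the main brain stearoyl-CoA desaturase, had 3993 and 4663 CPM in wild-type gray and 3266 and 3788 CPM in white matter, and 2920 against 2615, 3743 and 3409 CPM in Rag1-/- mice, with log2 ratios of -0.29, -0.30 and -0.16 in the pairs. Srebf2 had 117 and 117 against 101 and 98.2 CPM, and 86.7 against 87.3, 112 and 110 CPM. Scd1, Scd2 and Scd3 are close copies in 1 stretch of chromosome 19, and reads shared between copies could be lost or split in counting.

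Other cell types' RNA moved with tissue in the same libraries. The 5 astrocyte markers (Aqp4, Gja1, Slc1a2, Slc1a3 and Aldoc) summed to 259 to 310 CPM in wild-type gray and 95.8 to 99.2 CPM in wild-type white matter oligodendrocytes, and to 262 CPM in Rag1-/- gray and 125 to 148 CPM in Rag1-/- white matter. None of the 5 was at 0, all 5 were lower in wild-type white matter (median log2 difference -1.64), and 2 of them passed the test. The 4 neuron markers (Snap25, Syt1, Camk2a and Rbfox3) were also all lower there, at 7.75 to 9.08 against 1.04 to 1.33 CPM. The 7 microglia markers were lower too, with a median log2 difference of -0.92, although their sum depended more on the batch (847 and 536 CPM in batch 1, 93.2 and 70.7 CPM in batch 2). Ttr, a choroid plexus transcript, was called higher, with 0 and 1.82 CPM in wild-type gray and 26.8 and 28.1 CPM in white matter. Cells with a UMI of an astrocyte marker made up 84.2% to 85.2% of wild-type gray and 55.1% to 59.3% of wild-type white matter oligodendrocytes. Without those cells, the log2 difference of Insig1 was -0.62, that of Scd3 -0.67, that of Scd1 -0.38 and that of Fads1 -0.31 in the blocked fit. In that fit, which was added after the data were seen and called 334 of 11199 genes (2.98%), 3 of the 36 passed: Insig1 (adjusted p = 0.000109) and Fdps (-0.56) lower and Hmgcs1 (0.53) higher. In Rag1-/- mice it called none of the 36 (background 1.43%). The part of this RNA in the values over all cells was otherwise not tested.

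The makeup of the cells also differed between tissues. Oligo1 cells were 66.1% to 72.2% of gray matter and 44.3% to 56.1% of white matter oligodendrocytes, and the age-related oligodendrocytes (ARO) were 6.99% to 21.7% in white matter and at most 0.352% in gray matter. The comparison was therefore repeated within Oligo1 and within Oligo2, the 2 main populations.

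Over all Oligo1 cells most differences ran down, and over all Oligo2 cells they parted by role; the subclusters of both differed between tissues. In Oligo1 cells 31 of 36 genes had a log2 difference below 0 in wild-type mice (median -0.24, against -0.01 over all 12256 genes tested). None passed unblocked (background 0.139%) or by DESeq2. An unadjusted p under 0.05 was found for 4 of the 36 and for 766 of all 12256 genes. With the pair as a block 11 of the 36 passed, all lower (background 5.17%). They were Fdps, Srebf1, Srebf2, Insig1, Stard4, Scd1, Scd2, Scd3, Fads1, Elovl1 and Elovl5. In all 3 pairs, 7 sterol synthesis enzymes were lower and 1 was higher in Oligo1, the latter being Hmgcs1 (log2 ratios of 0.05, 0.10 and 0.18). Over all genes with at least 100 UMIs in Oligo1, 19.8% were lower and 21.4% higher in all 3 pairs.
The makeup of Oligo1 moved with tissue. Oligo1b was 36.5% to 59.8% of gray matter and 9.03% to 25.8% of white matter Oligo1 cells. Within Oligo1a, 5 sterol synthesis enzymes were lower and 4 higher in all 3 pairs (15.1% and 18.6% of all genes), within Oligo1b 1 was lower, Fdps, and none higher (16.1% and 14.4%), and within Oligo1c 4 were lower and 1 higher (18.2% and 18.5%). Whether the enzymes differed between tissues alike in all Oligo1 subclusters was not tested.
In Oligo2 cells 11 of the 18 sterol synthesis enzymes were higher in white matter in all 3 pairs and none was lower, against 21.2% of all genes higher and 19.4% lower. Hmgcs1 had 176 against 260 and 232 against 371 CPM in the wild-type pairs and 273 against 443 CPM in the Rag1-/- pair. Sqle had 58.7 against 71.8, 62.2 against 84.2 and 65.9 against 83.7 CPM in the same order, and Idi1 had 73.1 against 94.6, 110 against 148 and 134 against 186 CPM. Each of these 3 enzymes was thus higher on the white matter side of every pair, while in Oligo1 Sqle and Idi1 were lower in every pair.
The makeup of Oligo2 moved with tissue as well. Oligo2a and Oligo2c, the subclusters highest in these enzymes, were 9.36% to 13.4% and 0.267% to 1.22% of gray matter Oligo2 cells, and 29.0% to 34.9% and 17.2% to 27.9% of those in white matter. Oligo2c had 1 cell in each gray matter library. Within Oligo2b, which held 85.4% to 90.4% of gray matter Oligo2 cells, only Hmgcs1 of the 18 enzymes was higher in all 3 pairs (18.7% of all genes), and Mvd, Fdps and Hsd17b7 were lower (15.3%). Within Oligo2a, on 11 to 38 gray matter cells, 6 were higher (Hmgcs1, Idi1, Sqle, Msmo1, Acat2 and Hsd17b7; 16.2% of all genes) and 1, Fdps, was lower (13.2%). The direction of most enzymes over all Oligo2 cells was thus not seen in its largest subcluster.
Scd3 was the 1 gene of the 36 that passed the unblocked test within Oligo2 (background 1.26%). It had 70.8 and 58.3 CPM in gray and 32.6 and 30.9 CPM in white matter Oligo2 cells of wild-type mice, a log2 difference of -0.99 with adjusted p = 0.016, and 50.1 CPM against 29.8, 34.1 and 33.7 CPM in Rag1-/- mice. The call was lost without wild-type gray matter replicate 1, gray matter replicate 2 or white matter replicate 2. With the block, 7 genes passed in Oligo2 (background 6.03%): Hmgcs1 (0.65), Idi1 (0.41) and Acaca (0.53) higher, and Srebf1, Insig1, Scd3 and Fads1 lower. Whether a difference was itself larger in Oligo2 than in Oligo1 was not tested.
In the 5 subclusters that held at least 10 cells in all 8 libraries, none of the genes tested passed the unblocked test in wild-type mice. The background there was 0.0474% in Oligo1a, 0.0295% in Oligo1b, 0.247% in Oligo1c, 0.0676% in Oligo2a and 0.154% in Oligo2b. Per subcluster, 0 to 5 of the 36 had an unadjusted p under 0.05. Over all genes 432 of 10541 did in Oligo1a, 387 of 10159 in Oligo1b and 741 of 10541 in Oligo1c. In Oligo2a 530 of 10359 did, and in Oligo2b 594 of 11031. The 5 subclusters gave 15 subcluster pairs, which come from the same pairs of libraries and are not independent. Insig1, Scd3, Scd1 and Fads1, named above for their direction over all cells, were each lower in white matter in 14. Hmgcs1 and Acaca, named in the same way, were each higher in 13. The share of all genes that ran one way as often was not counted. Idi1 was higher in 9 and Sqle in 8, so that neither kept a direction across subclusters.

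**Figure D2:**
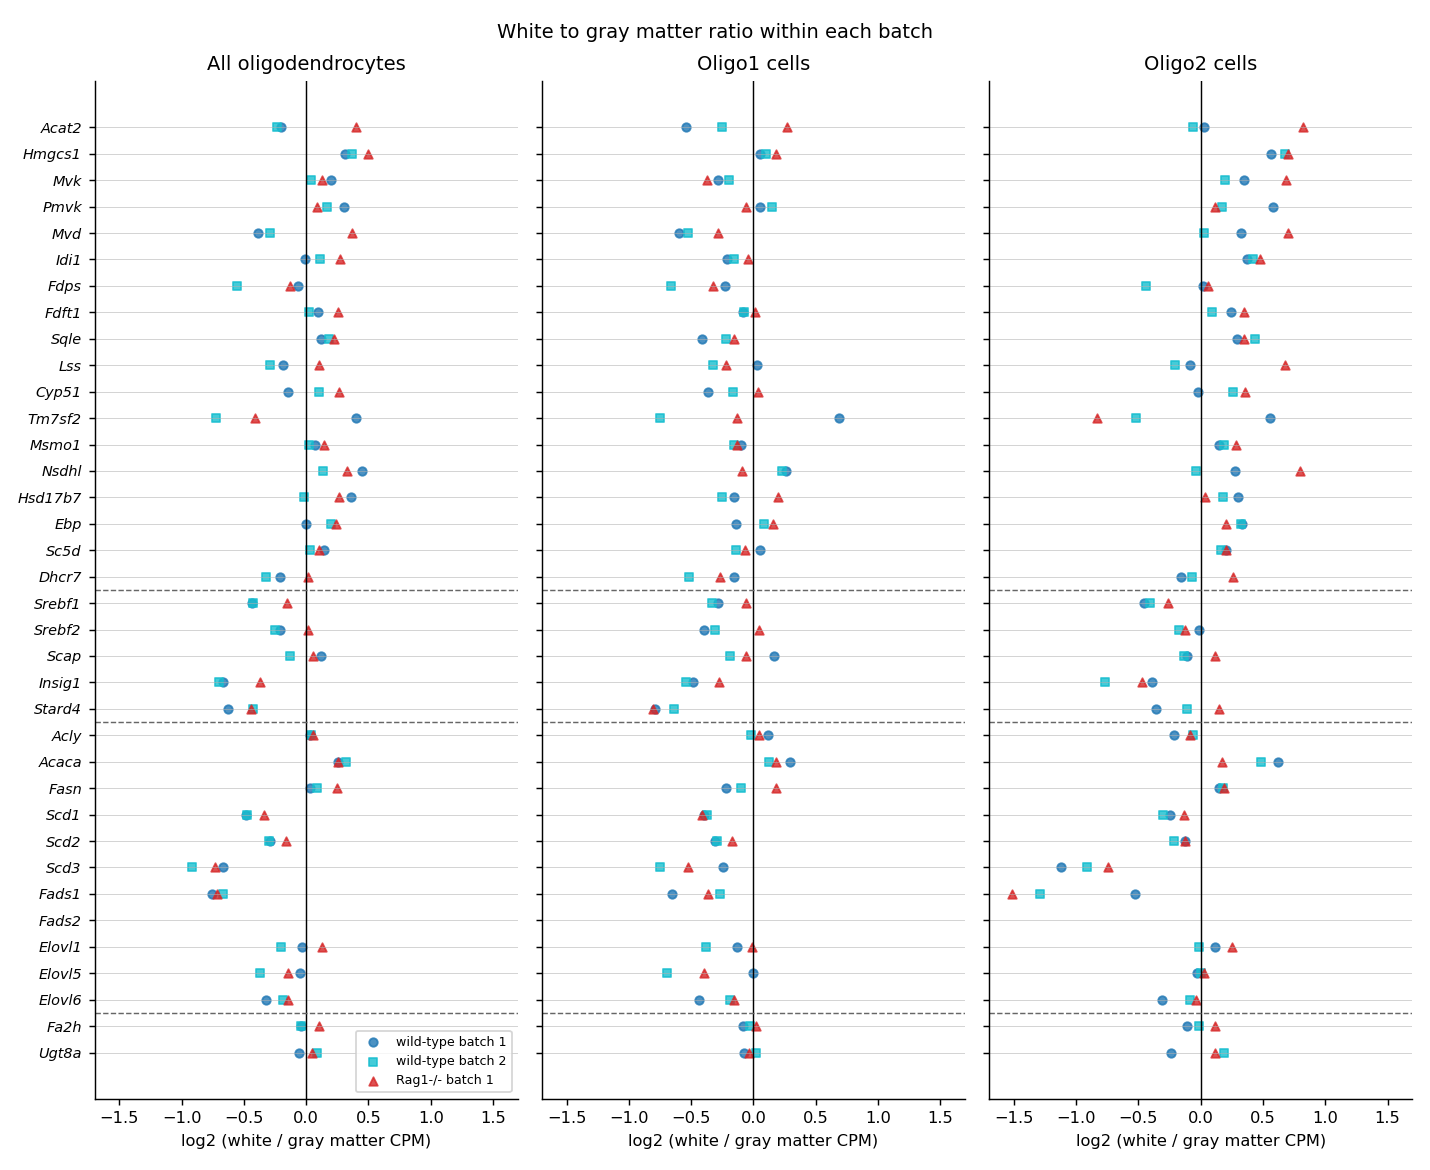
Log2 ratio of white to gray matter CPM (x axis) for each gene (y axis) in the 3 batches that gave both tissues, for all oligodendrocytes, Oligo1 cells and Oligo2 cells; dashed lines part the groups by role, and Fads2 is left out for its low counts. Most sterol synthesis enzymes (top block) sit right of 0 in Oligo2 and left of 0 or near it in Oligo1, while Insig1, Scd1, Scd2, Scd3 and Fads1 sit left of 0 in every panel. The Oligo1 and Oligo2 panels pool subclusters whose shares differed between tissues.

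The same tissue comparison in Rag1-/- mice rests on 1 gray matter library. Unblocked, 57 of 13067 genes were called (0.436%) and none of the 36. An unadjusted p under 0.05 was found for 5 of the 36 and for 1257 of all 13067 genes. The lowest log2 differences were those of Insig1 (-0.84 ± 0.29 standard error, adjusted p = 0.363), Stard4 (-0.52) and Scd3 (-0.49), and the highest those of Scap (0.70), Mvk (0.54) and Fasn (0.42). The gray matter library belongs to the first Rag1-/- batch, and 2 of the 3 white matter libraries to the second. Scap had 24.3 CPM in gray matter, 25.2 CPM in white matter of the same batch and 46.0 and 44.8 CPM in the other batch, so that its within-batch log2 ratio was 0.06. Fasn, the fatty acid synthase, had 70.3 CPM in gray and 83.6, 93.0 and 101 CPM in white matter, a within-batch ratio of 0.25. Srebf1 was 0.31 higher in the unblocked fit but had a log2 ratio of -0.16 within the batch. Mvk, the mevalonate kinase, had 20.2 CPM in gray and 22.1, 30.2 and 34.4 CPM in white matter, the lowest of them in the batch of the gray matter library.
With the pair as a block, 5 of the 36 passed (background 5.27%): Hmgcs1 higher (0.48, adjusted p = 0.000297) and Scd3 (-0.74), Fads1 (-0.73), Insig1 (-0.38) and Scd1 (-0.35) lower. This is 1 pair, read against the spread of the 2 wild-type pairs. The difference of the tissue effect between the genotypes was called for none of the 13067 genes (0%). Of the 36, none had an unadjusted p under 0.05 (236 of all 13067 genes did), and DESeq2 called none. Within Oligo1 (background 0.139%), Oligo2 (1.02%), Oligo1a (0.0474%), Oligo1b (0.0689%), Oligo1c (0.0474%), Oligo2a (0.0386%) and Oligo2b (0.408%), none of the genes passed between Rag1-/- tissues, unblocked. Without Rag1-/- white matter replicate 1, Insig1 (-1.14) and Scap (0.94) passed over all oligodendrocytes (background 2.11%), and Insig1 (-1.37), Mvk (1.15) and Scap (0.92) within Oligo2 (background 3.70%). That fit sets gray matter of the first batch against white matter of the second, so tissue and batch cannot be told apart in it.

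The next comparison asked what changed in white matter oligodendrocytes in the absence of lymphocytes. None of the 36 genes passed (background 119 of 13067, 0.911%), and DESeq2 called none. An unadjusted p under 0.05 was found for 3 of the 36 and for 1083 of all 13067 genes. The median log2 difference of the 36 was 0.05 against 0.01 over all genes.
Fdps, the farnesyl diphosphate synthase, had 105 and 88.7 CPM in wild-type and 109, 123 and 150 CPM in Rag1-/- white matter, where every Rag1-/- library was above both wild-type ones, by 0.47 ± 0.17 on the log2 scale (standard error, adjusted p = 0.473). Insig1 had the lowest value, -0.45 ± 0.24 (adjusted p = 0.696), with Rag1-/- replicate 1 (123 CPM) between the wild-type libraries and replicates 2 and 3 (68.6 and 72.9 CPM) below them. Acat2, the thiolase at the start of the pathway, had 26.2 and 25.5 CPM in wild-type and 25.7, 19.2 and 18.0 CPM in Rag1-/- libraries, and Fasn 118 and 111 CPM against 83.6, 93.0 and 101 CPM. Tm7sf2, a sterol reductase, had 3.83 and 2.82 CPM against 3.58, 4.59 and 3.28 CPM, on 23 to 135 UMIs.
Fads2, the delta-6 desaturase, was hardly detected: 1 and 5 UMIs in the wild-type and 11, 30 and 99 UMIs in the Rag1-/- white matter libraries, or 0.167 and 0.113 CPM against 0.394, 1.38 and 2.40 CPM. Its fitted log2 difference of 3.52 had an adjusted p of 0.238, which became 0.0488 without Rag1-/- white matter replicate 1 (background 1.09%), and within Rag1-/- white matter its level was lowest in the first batch. In gray matter Fads2 had 1 and 4 UMIs in wild-type and 17 UMIs in Rag1-/- mice.
Myelin galactolipid genes lay within the spread of the libraries. Fa2h had 443 and 455 CPM in wild-type and 390, 424 and 450 CPM in Rag1-/- white matter, and Ugt8a 769 and 1009 CPM against 993, 758 and 911 CPM. Their log2 differences were -0.02 ± 0.10 and 0.06 ± 0.16 (standard errors). Within Oligo1, Oligo2, each subcluster, the AROs and the interferon-responsive oligodendrocytes (IRO), none of the genes tested passed either; of the subclusters and AROs, Fads2 was tested in Oligo1a only, Tm7sf2 was not tested in Oligo2c, and 7 of the 36 were not in IROs. The background was 0.734% in Oligo1, 0.905% in Oligo2, 0.730% in Oligo1a, 0.571% in Oligo1b, 0.920% in Oligo1c, 0.850% in Oligo2a, 0.870% in Oligo2b, 0.891% in Oligo2c, 0.990% in AROs and 0.794% in IROs. Without Rag1-/- white matter replicate 1, Insig1 passed within Oligo2 (-0.78, background 1.52%).

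Between clusters, cholesterol enzymes were laid out in a graded way in the 5 white matter libraries, highest in Oligo2a and Oligo2c and lowest in Oligo1a. Of the 18 sterol synthesis enzymes, 13 had their highest mean in Oligo2a and 3 in Oligo2c, and 13 had their lowest in Oligo1a. Compared within each library, 17 of the 18 were higher in Oligo2a than in Oligo1a in all 5 libraries, with a median log2 ratio of 0.74; over all genes with at least 100 UMIs, 23.1% were higher in all 5. These clusters were drawn from the same counts. Oligo2a cells had more UMIs (medians of 12768 to 18661 per cell) than Oligo1a cells (7441 to 10951), and CPM is relative to that total.
Sqle had 90.2 ± 16.5 CPM (SD, n = 5 libraries) in Oligo2a, 81.3 ± 17.4 in Oligo2c, 54.2 ± 7.0 in Oligo2b, 50.5 ± 9.0 in AROs, 45.5 ± 16.8 in IROs, 43.0 ± 12.4 in Oligo1b, 39.1 ± 5.58 in Oligo1c and 33.7 ± 6.00 in Oligo1a. The SD ranges of Oligo2a and Oligo2c overlapped, as did those of neighbours from Oligo2b down to Oligo1c. All clusters came from the same 5 libraries, so this overlap does not measure their difference within a library. Oligo2a was the highest cluster for Sqle in 2 of the 5 libraries. Hmgcs1 had 385 ± 142 CPM in Oligo2a, 338 ± 79.0 in Oligo2c and 178 ± 38.7 in Oligo1a, and in every library its level in Oligo2a was above that in Oligo1a. Mvd, the mevalonate diphosphate decarboxylase, was led by Oligo2a in all 5 libraries, at 18.1 ± 4.69 CPM against 6.92 ± 3.79 CPM in AROs, its lowest cluster.
Insig1 and Srebf1 ran against the enzymes. Insig1 had 142 ± 68.9 CPM in Oligo1a and 83.2 ± 36.2 CPM in Oligo2c, and Srebf1 105 ± 31.3 CPM in Oligo1b and 67.5 ± 13.1 CPM in Oligo2a. Both were lower in Oligo2a than in Oligo1a in 5 of 5 libraries, with median log2 ratios of -0.75 and -0.45. Scap, by contrast, was higher in Oligo2a (47.2 ± 10.3 CPM) than in Oligo1a (32.5 ± 7.91 CPM).
Fads1 had the widest range of the genes found in all 8 clusters: 47.2 ± 15.4 CPM in Oligo1a, 38.2 ± 12.2 in Oligo1b and 36.5 ± 5.27 in Oligo1c, but 23.8 ± 4.57 in Oligo2b, 10.9 ± 4.63 in Oligo2c and 6.47 ± 3.13 in Oligo2a, a ratio of 7.29 from the highest to the lowest. In each of the 5 libraries Oligo2a was below Oligo1a, by log2 ratios of -4.07 to -2.06. AROs (29.96 ± 4.64 CPM) and IROs (34.2 ± 10.6 CPM) lay between Oligo2b and Oligo1c. Elovl5, which elongates the same polyunsaturated fatty acids, ran the other way, with 142 ± 24.0 CPM in Oligo2a and 62.5 ± 16.4 CPM in Oligo1a. After Fads1, the largest ratios of highest to lowest cluster were those of Sqle (2.68), Mvd (2.61), Elovl5 (2.28) and Hmgcs1 (2.15).
The desaturases Scd1 and Scd3 were highest in Oligo1b, at 169 ± 19.2 and 49 ± 5.59 CPM. Scd1 was lowest in AROs (98.1 ± 10.5 CPM) and Scd3 in Oligo2c (24.6 ± 3.32 CPM). Fa2h (501 ± 35.1 CPM) and Ugt8a (1020 ± 184 CPM) were both highest in Oligo2a, with lowest clusters at 376 ± 53.8 and 736 ± 151 CPM. Fads2 had no UMI in IROs, Tm7sf2 had a mean of 2.84 to 5.36 CPM and Stard4 of 8.59 to 12.5 CPM, and Mvd, Tm7sf2 and Hsd17b7 had no UMI in the IROs of at least 1 library, so that their order of clusters is uncertain.
In AROs, compared with Oligo1a, 9 of 18 sterol synthesis enzymes were higher and none lower in all 5 libraries, with a median log2 ratio of 0.18. Insig1, Srebf1, Scd1 and Fads1 were lower in 5 of 5. Over all genes, 12.7% were higher and 8.78% lower in 5 of 5. IROs, with 17 to 123 cells per library, had 4 of the 18 enzymes higher in 5 of 5 (5.10% of all genes).

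**Figure D3:**
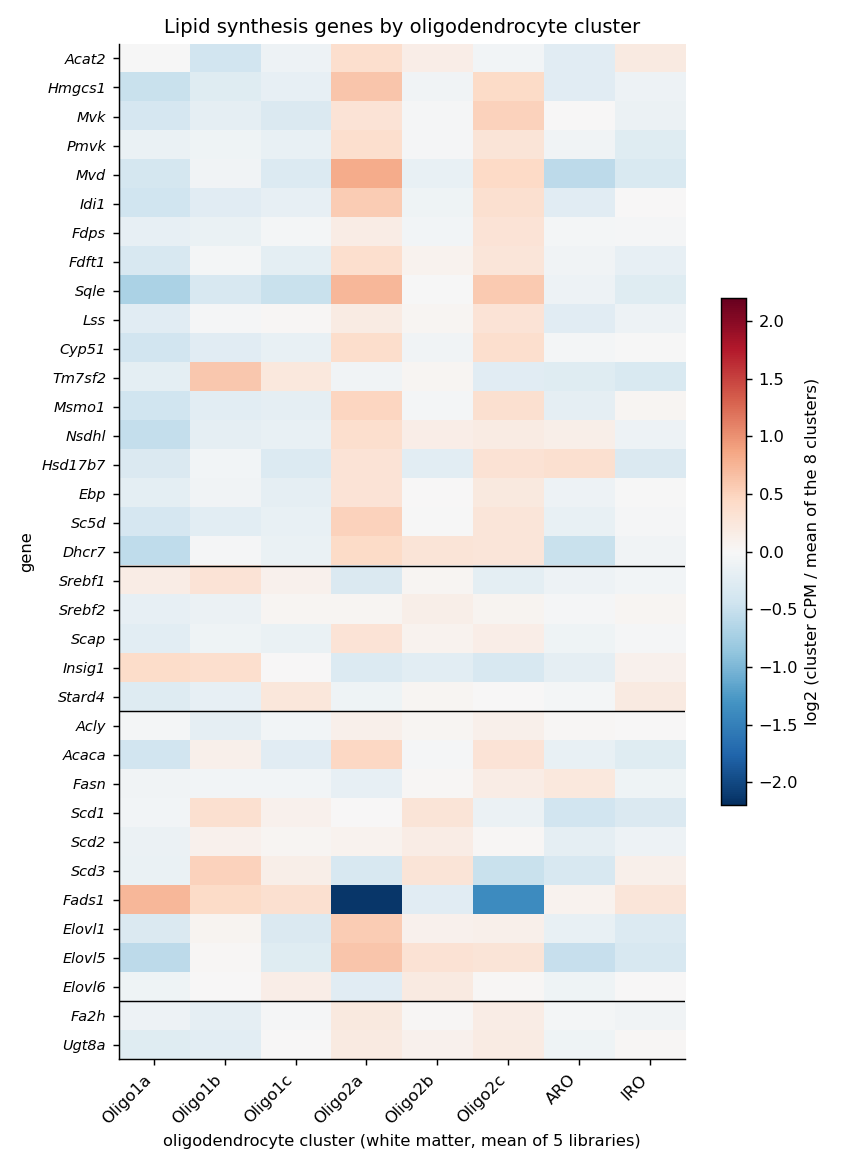
Mean CPM of each gene (y axis) in 8 oligodendrocyte clusters (x axis), averaged over the 5 white matter libraries and shown as log2 of its ratio to the mean of the 8 clusters (color); black lines part the groups by role, and Fads2 is left out. Most sterol synthesis enzymes are red in Oligo2a and Oligo2c and blue in Oligo1a (Tm7sf2, blue in Oligo2a and Oligo2c, and Acat2, blue in Oligo2c, are exceptions), and Fads1 is darkest blue in Oligo2a and Oligo2c.

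Microglia of the 4 Rag1-/- libraries (707 to 3617 cells each) carried most of these genes at lower levels than the oligodendrocytes of the same library. In all 4 libraries 33 of the 36 genes were lower in microglia, as were 42.7% of all genes with at least 100 UMIs; the other three were Ebp, Acly and Fads1. The sterol isomerase Ebp had 93.8 CPM in gray and 80.3, 81.9 and 82.3 CPM in white matter microglia (median 96.9% of the oligodendrocyte level), ATP-citrate lyase (Acly) 59.5 against 49.4, 52.2 and 56.6 CPM (85.9%), and Fads1 39.0 against 21.6, 34.4 and 34.0 CPM (107%). At the other end were the myelin lipid genes Fa2h (0.947% of the oligodendrocyte level), Ugt8a (1.03%), Elovl6 (1.42%), Scd3 (1.59%), Scd1 (2.21%) and Scd2 (2.90%).

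White against gray matter in Rag1-/- microglia rests on 3 libraries against 1. Of the 35 genes tested, 31 were above 0 in white matter, with a median log2 difference of 0.59 against 0.02 over all 12662 genes, and 1 passed (background 3.0%, 380 genes). That gene was Sqle, with 1.23 CPM in gray and 5.48, 4.88 and 4.64 CPM in white matter, a log2 difference of 2.26 ± 0.44 (standard error, adjusted p = 0.0422). The call was lost without white matter replicate 2 or replicate 3, and without replicate 1 it was kept with 14 of the 36 genes called and 2803 genes in all (22.8%), again between batches. Acaca had 7.41 CPM in gray and 24.0, 11.8 and 17.1 CPM in white matter (adjusted p = 0.0999) and passed by DESeq2 (adjusted p = 0.0177). The share of all genes that DESeq2 called in microglia is not given here.
The 7 oligodendrocyte markers were all above 0 in the same contrast, although none passed, with a median log2 difference of 1.81, none was at 0, and their sum was 365 CPM in gray and 386, 925 and 1613 CPM in white matter microglia. The part of that RNA in the values of Sqle and the other genes was not tested.
Cluster makeup differed as well: Homeostatic1 held 1634 of 1732 gray matter microglia, against 785 of 3617 in white matter of the same batch. White matter-associated microglia (WAM) numbered 27 in gray matter and 121 to 799 in white matter. Within single clusters none of the genes tested passed (background 0.107% in Activated, 0.0444% in Homeostatic1, 0.00932% in Homeostatic2, 1.08% in interferon-responsive microglia and 2.05% in WAM). In interferon-responsive microglia only Msmo1 was tested, and in Activated only Hmgcs1, Pmvk, Msmo1, Ebp, Acly, Scd2 and Fads1. Scd3 and Fads2 were tested in no cluster and Elovl6 in Homeostatic1 only, and WAM also lacked Mvd, Lss, Tm7sf2, Scd1 and Fa2h. Gray matter sides held 15 to 29 cells in every cluster other than Homeostatic1. In Homeostatic1 Sqle had 1.20 CPM in gray and 0.758, 1.14 and 3.57 CPM in white matter.
Among the clusters of white matter, Sqle had 6.76, 8.43 and 8.29 CPM in WAM, Acaca 34.9, 23.4 and 33.7 CPM against 10.1, 3.98 and 8.44 CPM in Homeostatic1, and Idi1 22.1, 19.7 and 15.5 CPM against 9.10, 7.39 and 7.79 CPM. In each of the 3 libraries these genes were higher in WAM than in Homeostatic1, and Fads1 was lower (13.8, 13.1 and 19.4 CPM against 29.1, 46.6 and 44.8 CPM). Of the 36, 14 were higher (38.9%) and 8 lower (22.2%) in WAM in all 3 libraries. Among all genes with at least 100 UMIs, a limit not set for the 36, 14.1% were higher and 61.6% lower. These clusters were drawn from the same counts. The oligodendrocyte markers summed to less in WAM (342, 735 and 1221 CPM) than in Homeostatic1 (418, 975 and 1817 CPM).

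**Figure D4:**
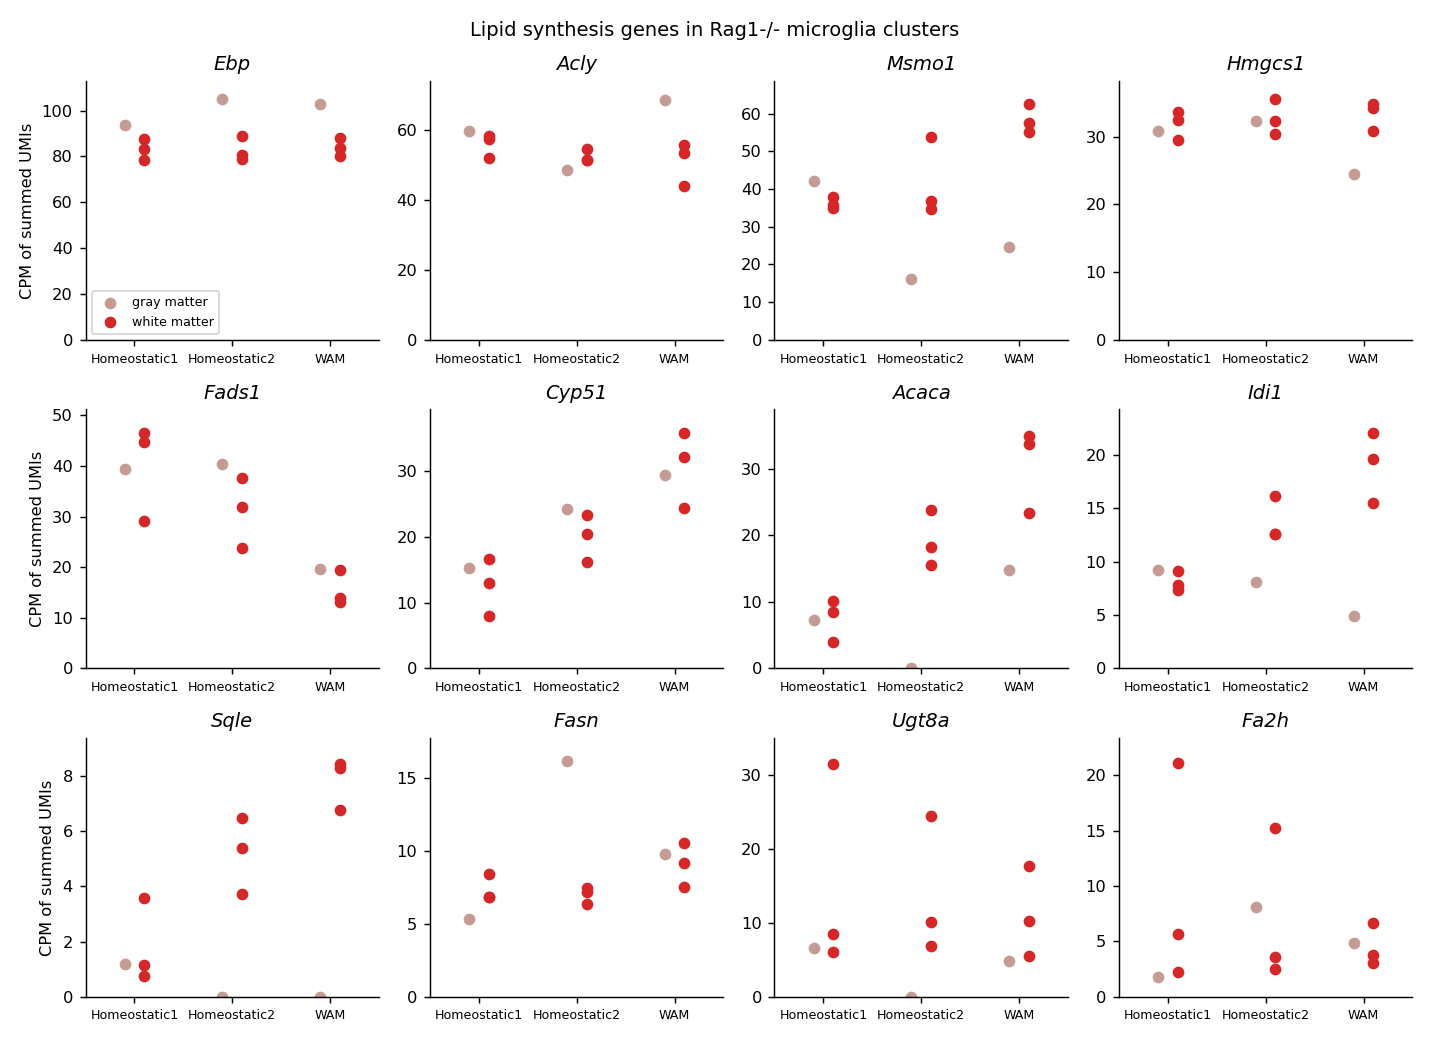
CPM of 12 genes (y axis, from 0) in 3 microglia clusters (x axis) of Rag1-/- mice; each point is 1 library, with gray matter offset to the left and white matter to the right. White matter points of Sqle, Acaca, Idi1 and Cyp51 are highest in WAM and those of Fads1 lowest there; the gray matter points of Homeostatic2 and WAM stand for 29 and 27 cells.

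The rest of the pathway was read from lists of 66 further genes. In wild-type oligodendrocytes none of the 60 that were tested passed unblocked. In the blocked fit the background was 10.0% of all genes. Of 9 genes of cholesterol efflux, 2 rose in it: Apod, a lipocalin, from 4036 and 2650 to 9744 and 6609 CPM (1.31), and the exporter Abca1 (0.32). Apoe, the main brain apolipoprotein, had 3058 and 2425 against 3674 and 2241 CPM. Of 15 other fatty acid genes, Me1, the malic enzyme that supplies NADPH, rose (1.44; 12.3 and 12.8 CPM in gray, 22.2 and 38.9 CPM in white matter), as did Hacd1, and Elovl4, Acsl3 and Acsl6 fell. Of 10 genes of uptake and storage, Lrp1 and Scarb1 fell, and of 13 sphingolipid genes Gal3st1, the sulfatide-making sulfotransferase, rose (0.26).
In Rag1-/- mice Thrsp, a regulator of fatty acid synthesis, passed the unblocked test (background 0.436%; 5.27 CPM in gray, 12.4, 15.0 and 14.2 CPM in white matter, log2 difference 1.41, adjusted p = 0.0371). With the block (background 5.27%), Apod (0.90), Me1 (1.30), Gal3st1 (0.37), Thrsp (1.22) and Plin3 (0.49) were higher and Lrp1 and Acsl6 lower. None of the further genes passed between Rag1-/- and wild-type white matter.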

How the data were processed

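The authors aligned reads to mm10 with Cell Ranger (version 4 in the submitters' notes; the methods name different versions per experiment), filtered cells, named the clusters and deposited UMI counts per gene and cell with cell metadata; these counts were used as deposited. UMI limits per cell differed between batches. No doublet caller is named in the sources used here and none was run; the methods remove clusters with microglia markers from Rag1-/- data and set upper UMI limits. Only genes listed for both genotypes (16999) entered the fits, and 4 microglia libraries of another series were left out. UMIs were summed per library and cluster, with libraries as replicates. Levels are UMIs per 1000000 summed UMIs (CPM), for clusters with at least 10 cells. Where a share of all genes is given for genes with at least 100 UMIs, the members beside it were counted without that limit. Sums were tested with edgeR 4.0.16 in R 4.3.3 (filterByExpr, TMM, quasi-likelihood F test, Benjamini-Hochberg adjustment over all genes, threshold 0.05), with all 4 groups in 1 fit and no block; the fit with each gray and white matter pair as a block (unpaired libraries a block each), DESeq2 1.42.0 and other settings were alternatives. The script was tested on simulated data. Labels pair gray and white matter libraries by batch, and residuals of the wild-type pairs correlated at 0.409 across 13063 genes. P-values of the unblocked fit measure the spread between libraries within groups, to which the 1 Rag1-/- gray matter library adds none. Those of the blocked fit rest mostly on the spread shared across genes. Genes called, the 3 highest and lowest per contrast, 11 fixed members and the 5 widest across clusters are named. Members and lists were chosen with earlier results of these data known. Positions are from GENCODE vM21 (GRCm38). Some genes of these lists are not reported here.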

Additional observations from a re-analysis of the deposited data

How the results depend on the processing

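Members called among the 36 changed with the following settings. For wild-type white minus gray matter the count of 0 became 1 with DESeq2, 1 with no filter on low counts, 11 with the replicate block and 3 with the replicate block in cells without astrocyte-marker UMIs, a setting chosen after seeing the data. Within Oligo1 the block gave 11 in place of 0, and within Oligo2 7 in place of 1, with 0 to 1 when single libraries were left out. For Rag1-/- white minus gray matter the block gave 5 in place of 0, and leaving out libraries gave 0 to 2 over all oligodendrocytes and 0 to 3 within Oligo2. For Rag1-/- against wild-type white matter leaving out libraries gave 0 to 1, both over all oligodendrocytes and within Oligo2. In microglia the count of 1 became 2 with DESeq2, 3 with no filter on low counts, and 0 to 14 without single libraries. Each of the calls gained by leaving out an oligodendrocyte library came without Rag1-/- white matter replicate 1 (Fads2, Insig1, Scap, Mvk); the cause was not tested. Of the members named by rule for each comparison, whose values alone were followed across settings, 3 changed sign, all in the Rag1-/- tissue comparison: Hmgcs1 to -0.071 without Rag1-/- white matter replicate 1 (-0.071 to 0.27 when single libraries were left out), and Fasn to -0.036 and Mvk to -0.091 with the block in cells without astrocyte-marker UMIs. RLE size factors, a common UMI limit, Oligo1 and Oligo2 cells only, and fits of 2 groups left the member counts as they were. With each cell weighted alike, 24 members had their highest mean in Oligo2a or Oligo2c, against 23 from summed UMIs. With 1 Rag1-/- gray matter library and 2 to 3 libraries elsewhere, a difference under the libraries' spread was not detectable. Settings also changed how many of all genes were called. For wild-type white minus gray matter these were 131 in the main fit, 281 with DESeq2, 194 with no filter on low counts and 1310 with the block. For microglia, all genes called with DESeq2 and with no filter are not given, so the members called there stand without a background.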
